A study of Mus musculus with 15 samples.

Results

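Iron uptake, storage and export was followed in MYC-driven mouse leukemia cells through 8 genes, Tfrc, Slc11a2, Fth1, Ftl1, Slc40a1, Ireb2, Aco1 and Hmox1. They were chosen by name, as the rows whose gene ID maps to these symbols, and are 8 of the 53379 mouse genes in the count tables. The cells, a model of acute lymphoblastic leukemia of the T lineage (T-ALL), were grown from tumors of the mouse model EμSRα-tTA/tet-O-MYC/FVB/N, in which a transactivator made in lymphoid cells keeps a human MYC transgene on until doxycycline is added. PolyA RNA was sequenced at 5 times, from mock-treated cells with MYC on (0 h) and from cells given doxycycline for 2, 4, 8 or 24 h (MYC off), with 3 libraries at each time. All 15 libraries carry both transgenes, and the mock treatment was sampled at 0 h only, so loss of MYC, doxycycline itself and time in culture cannot be told apart. Whether libraries of 1 time were made from separate cultures was not stated in the labels, so p-values measure the spread between these libraries, which may be technical.

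Cells take up iron when transferrin binds its receptor, encoded by Tfrc, and the complex is carried into endosomes, where the transporter DMT1 (Slc11a2) moves the metal into the cytosol. Ferritin, a shell of heavy (Fth1) and light (Ftl1) chains, stores it, ferroportin (Slc40a1) is the exporter, and haem oxygenase (Hmox1) frees it from haem. The iron regulatory proteins IRP1 (Aco1, an aconitase when it holds an iron-sulfur cluster) and IRP2 (Ireb2) bind hairpins called iron responsive elements when iron is scarce. Bound in a 5′ UTR they block translation, as in ferritin mRNA, and bound in the 3′ UTR of Tfrc mRNA they protect it from decay. Dividing lymphocytes depend on transferrin receptor for iron.

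The hairpins are shown because IRP1 and IRP2 bind such elements in these mRNAs. Each is read from GENCODE M21 transcripts on GRCm38, lies in a UTR exon, and runs 5′ to 3′, with the apical loop in capitals.
Fth1 5′ UTR, chr19:9982732-9982760, plus strand: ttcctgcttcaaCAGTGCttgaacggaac
Ftl1 5′ UTR, chr7:45459779-45459807, minus strand: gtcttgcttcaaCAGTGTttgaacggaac
Slc40a1 5′ UTR, chr1:45925465-45925493, minus strand: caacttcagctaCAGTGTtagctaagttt
Tfrc 3′ UTR, chr16:32631219-32631247, plus strand: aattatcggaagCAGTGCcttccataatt
Tfrc 3′ UTR, chr16:32631598-32631626, plus strand: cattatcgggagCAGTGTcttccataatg
Tfrc 3′ UTR, chr16:32631663-32631691, plus strand: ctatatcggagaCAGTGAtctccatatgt
Tfrc 3′ UTR, chr16:32631710-32631738, plus strand: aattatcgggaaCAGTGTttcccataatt
The search asked for a C, 5 bases, a loop CAGTGN and 5 bases that pair with the first 5 (G to U pairs allowed), on the transcript strand only. It matched a UTR of 160 of 21901 protein-coding genes, 0.73%. Both ferritin genes and Slc40a1 had 1 match each, and Tfrc had 4. No UTR of Slc11a2, Ireb2, Aco1 or Hmox1 held these letters. A form of Slc11a2 mRNA is known to carry an iron responsive element, which this search did not match, and counts per gene do not separate Slc11a2 transcripts with different 3′ ends. In RefSeq's promoter windows (GRCm38, 32851 windows of 250 bases before to 50 after a start), 5 of the 8 genes, Tfrc, Fth1, Ftl1, Ireb2 and Aco1, had a window, and none of theirs held the E-box CACGTG or the antioxidant response core TGACNNNGC on either strand. Those letters stand in 7.2% and 12.4% of all windows. Sites outside these windows were not searched, and Slc11a2, Slc40a1 and Hmox1 had no window to search.

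The libraries held 25852711 to 27102318 counts. The human MYC transgene fell at every time with doxycycline, to 24.8 ± 1.98, 9.42 ± 1.46, 5.58 ± 0.55 and 3.29 ± 0.31 CPM (counts scaled to a common library size) at 2, 4, 8 and 24 h, against 2024 ± 52.3 CPM at 0 h (SD, n = 3 each). The labelled lineage was checked with 9 T lineage markers, all above 1 CPM, whose summed level was 8097 to 8592 CPM after 24 h, against 4747 to 4822 CPM at 0 h. Of 10 macrophage markers, Lyz2, Marco, Spic, Cd163 and C1qa were at 0 in all libraries, 2 exceeded 1 CPM (Csf1r and Cd68), and the sum was 5.91 to 10.1 CPM after 24 h, against 7.88 to 10.1 CPM at 0 h. Of 9 erythroid markers, the globin genes Hba-a2, Hbb-bs and Hbb-bt were at 0 in all libraries and the sum did not exceed 0.82 CPM, and 5 B cell markers summed to at most 0.37 CPM. The library of replicate 3 after 24 h stood apart. Its chi-square per degree of freedom against the other 24 h libraries was 86.6 and 95.5, where other pairs of replicates gave 2.95 to 17.9. Fold changes of the 7 tested iron genes after 24 h are also given without it. So are those printed for other genes where leaving it out changed a call or moved the value by over 1.5 times. Some listed genes whose call changed without that library are not printed. Levels and nearest genes include it.

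**Figure D1:**
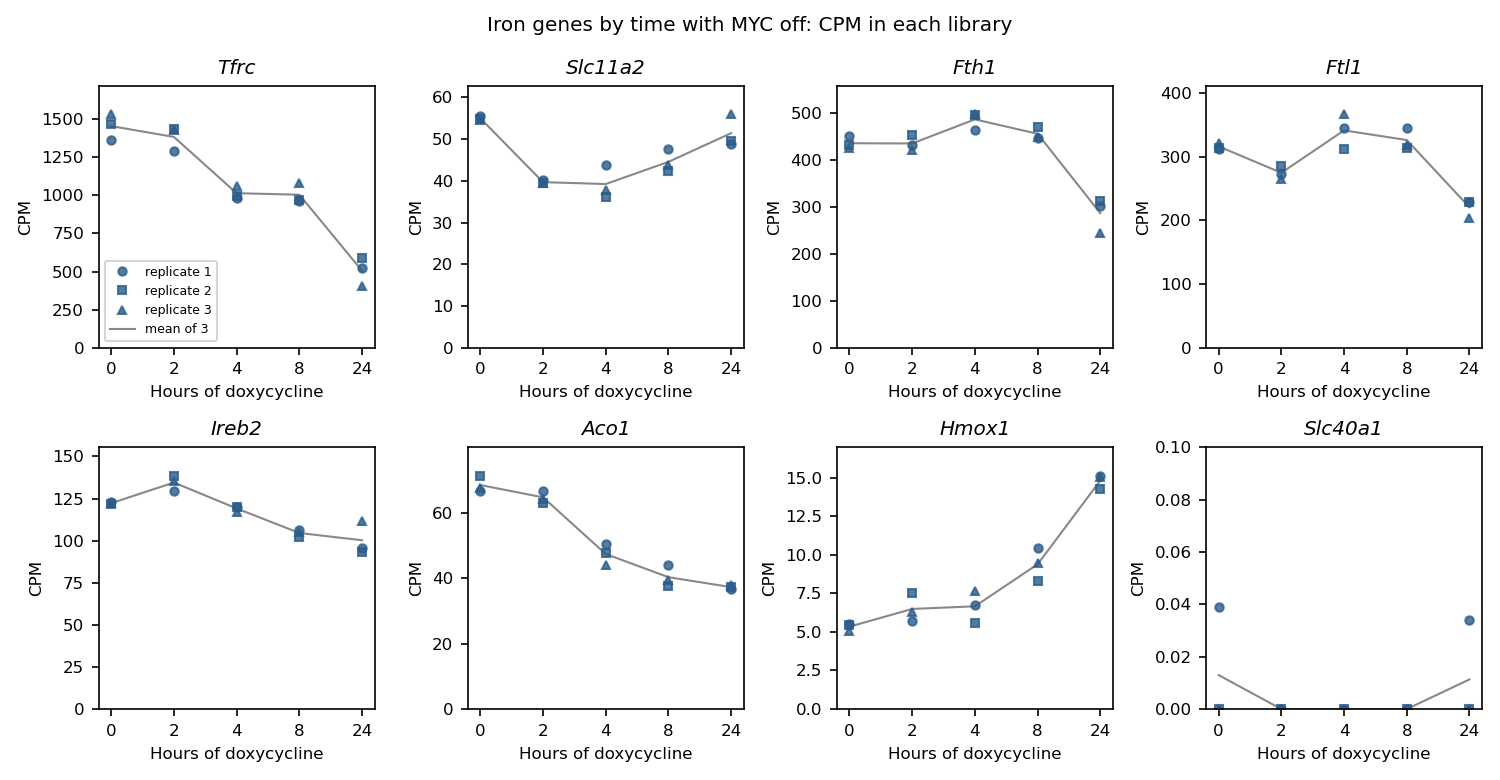
CPM of the 8 iron genes (y axes, each from 0) in each library against hours of doxycycline (x axis, evenly spaced), with a symbol for each replicate and a line through the means. Tfrc and Aco1 lie lower after 24 h than at 0 h, Hmox1 lies higher, Slc11a2 dips at 2 and 4 h, both ferritin genes drop between 8 and 24 h, and Slc40a1 has a count in 2 of 15 libraries.

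Slc40a1 was too low to test, which left 7 of the 8 genes. A gene was called where edgeR's quasi-likelihood test gave a Benjamini-Hochberg adjusted p under 0.01 over all 14485 genes tested. All 7 were called for a change at any time against 0 h, in which 74.2% of all tested genes were called. At 2 h against 0 h, 0 of the 7 were higher and 1, Slc11a2, was lower, beside 6.6% of all genes called higher and 8.59% called lower. At an unadjusted p under 0.05, 0 were higher and 2 lower, and DESeq2 also called 0 higher and 2 lower. At 4 h, 0 were higher and 3 lower (Tfrc, Slc11a2 and Aco1), beside 18.1% and 19.9% of all genes. At an unadjusted p under 0.05, 1 was higher after 4 h, while DESeq2 called 0. At 8 h, 1 was higher (Hmox1) and 4 were lower, with Ireb2 added, beside 25.3% and 25.1%. At 24 h, 1 was higher (Hmox1) and 5 were lower (Tfrc, Fth1, Ftl1, Ireb2 and Aco1), beside 30.7% and 28.1%. The median log2 fold change of the 7 was -0.07, -0.04, -0.23 and -0.52 at 2, 4, 8 and 24 h, where the median of all genes tested was 0.01, 0.08, 0.09 and 0.07.

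Step by step, at 4 h against 2 h 1 of the 7 was higher (Ftl1) and 2 were lower (Tfrc and Aco1), beside 7.72% of all genes higher and 13.0% lower. At 8 h against 4 h none was called in either direction, beside 5.73% and 6.97%. At an unadjusted p under 0.05, 2 were higher and 2 lower in that step, and DESeq2 called 1 higher and 1 lower. At 24 h against 8 h, 1 was higher (Hmox1) and 3 were lower (Tfrc, Fth1 and Ftl1), beside 20.8% and 17.3%. Leaving out 24 h replicate 3 lowered the fitted spread and moved 3 of these counts by over 1.5 times, to 2 called at 2 h against 0 h, 5 at 4 h against 2 h and 3 at 8 h against 4 h. The counts at 24 h against 0 h and against 8 h stayed at 6 and 4 without that library.

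**Figure D2:**
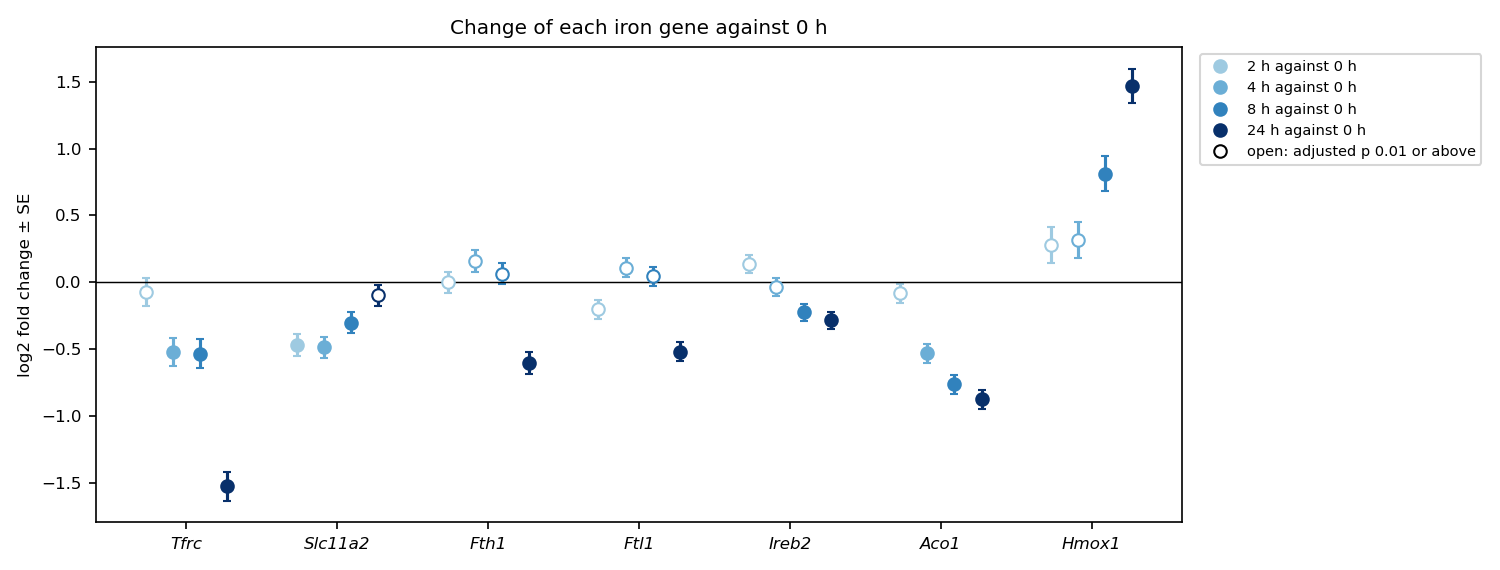
Log2 fold change against 0 h (y axis, with the standard error as bars) of the 7 tested iron genes at 2, 4, 8 and 24 h (light to dark). Filled points passed an adjusted p under 0.01: Tfrc reached -1.53 and Hmox1 1.47 after 24 h, while Slc11a2 was furthest below 0 at 2 and 4 h.

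Transferrin receptor mRNA fell furthest of the 7, in separate steps before 4 h and after 8 h. Tfrc (chromosome 16, 32608920 to 32632794, plus strand, GRCm38) stood at 1363, 1470 and 1535 CPM in the 3 libraries at 0 h and at 1290, 1437 and 1427 CPM after 2 h. It stood at 982, 997 and 1065 CPM after 4 h and at 962, 969 and 1083 CPM after 8 h. At 24 h it stood at 521, 587 and 407 CPM, the lowest of them in the library that stood apart. Libraries at 0 and 2 h overlapped, every library at 4 and 8 h lay below every one at 0 and 2 h, and every library after 24 h lay below all others. The log2 fold change against 0 h was -0.07 ± 0.11 after 2 h (SE, adjusted p = 0.69), -0.52 ± 0.11 after 4 h (adjusted p = 0.000779), -0.54 ± 0.11 after 8 h (adjusted p = 0.00045) and -1.53 ± 0.11 after 24 h (adjusted p = 5.36e-09). Without 24 h replicate 3 the value after 24 h was -1.39 ± 0.07 (adjusted p = 4.3e-13).

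On the log2 scale, most of the fall of Tfrc came between 8 and 24 h. That step was -0.99 ± 0.11 (adjusted p = 3.37e-06), or -0.86 ± 0.07 without 24 h replicate 3 (adjusted p = 4.98e-09), against -0.45 ± 0.11 for 4 h against 2 h (adjusted p = 0.00443) and -0.01 ± 0.11 for 8 h against 4 h (adjusted p = 0.946, 95% interval -0.22 to 0.19). The earlier step was not called with upper-quartile factors (adjusted p = 0.013), nor when replicate 2 or 3 of the 2 h libraries or replicate 1 or 2 of the 4 h libraries was left out (adjusted p up to 0.022). As a share of its 0 h mean, Tfrc in CPM was at 69.0% ± 4.68 after 8 h and 34.7% ± 6.22 after 24 h (SD, n = 3 each). In the authors' TPM (counts divided by gene length and scaled to a fixed sum per library) it was at 70.6% ± 2.80 and 43.9% ± 4.80. By that share the part lost after 8 h was not the larger. Polyadenylated Tfrc mRNA was measured, not the receptor. In bulk RNA, fewer cells of a type and less RNA per cell cannot be told apart, and each value is a share of a library's RNA.

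Slc11a2, encoding the endosomal iron transporter DMT1, had another course, with its lowest levels at 2 and 4 h. The gene (chromosome 15, 100387898 to 100425072, minus strand) stood at 55.5, 54.8 and 54.6 CPM at 0 h and at 40.1, 39.5 and 39.4 CPM after 2 h. It stood at 43.8, 36.0 and 37.8 CPM after 4 h, at 47.6, 42.3 and 43.8 CPM after 8 h, and at 48.7, 49.6 and 56.0 CPM after 24 h. Each library at 2, 4 and 8 h lay below each at 0 h, and those after 24 h overlapped them. Against 0 h the log2 fold change was -0.47 ± 0.08 after 2 h (adjusted p = 0.000445), -0.49 ± 0.08 after 4 h (adjusted p = 0.000109), -0.30 ± 0.08 after 8 h (adjusted p = 0.00365) and -0.10 ± 0.08 after 24 h (adjusted p = 0.288, 95% interval -0.25 to 0.06). The last was -0.16 ± 0.07 without 24 h replicate 3 (adjusted p = 0.0507). Slc11a2 was the one gene of the 7 called after 2 h.

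The later Slc11a2 values depend on scaling. The call after 8 h was lost with library totals (adjusted p = 0.0596), with upper-quartile factors (adjusted p = 0.103) and without any single 0 h library (adjusted p = 0.0105 to 0.0134). At 24 h the value was above 0 with upper-quartile factors (0.04) and library totals (0.18). The authors' TPM of Slc11a2 stood at 120.0% ± 19.7 of 0 h (SD, n = 3). Its 24 h libraries stood at 24.5, 24.8 and 32.4 TPM, the highest in the library that stood apart, against 23.3, 22.3 and 22.5 TPM at 0 h. Scaling by library totals shifted the all-gene median by 0.11 on the log2 scale after 8 h and 0.27 after 24 h, and upper-quartile factors shifted it by 0.16 and 0.14. At 24 h against 8 h Slc11a2 was called higher with library totals only, by 0.38 (adjusted p = 0.0018), against 0.21 ± 0.08 with the scaling used throughout (adjusted p = 0.0383). Gm5475 overlaps Slc11a2 on the other strand and had 26 to 66 counts a library. No source used here gives the strand setting of the counting.

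Both ferritin mRNAs were called lower after 24 h and at no earlier time. Fth1, the heavy chain that oxidises iron as it enters the shell (chromosome 19, 9980598 to 9985098, plus strand), stood at 450, 430.3 and 424 CPM at 0 h and at 432, 451 and 420 CPM after 2 h. It stood at 464, 496 and 497 CPM after 4 h and at 446, 469 and 449 CPM after 8 h. At 24 h it stood at 302, 312 and 244 CPM, below every other library. Against 0 h the log2 fold change was -0.002 ± 0.080 after 2 h (adjusted p = 0.992), 0.16 ± 0.08 after 4 h (adjusted p = 0.107), 0.07 ± 0.08 after 8 h (adjusted p = 0.489) and -0.60 ± 0.08 after 24 h (adjusted p = 6.25e-06). Without 24 h replicate 3 the value after 24 h was -0.50 ± 0.05 (adjusted p = 3.64e-08), and that after 4 h, 0.16 ± 0.05, was called higher (adjusted p = 0.00639). All 3 libraries after 4 h lay above all 3 at 0 h.

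Ftl1, the light chain that helps iron mineralise inside the shell (chromosome 7, 45457944 to 45459884, minus strand), stood at 313, 315 and 322 CPM at 0 h and at 274, 286 and 266 CPM after 2 h. It stood at 345, 312 and 368 CPM after 4 h and at 346, 315 and 319 CPM after 8 h. At 24 h it stood at 229.7, 229.2 and 204 CPM. The libraries after 2 h and those after 24 h all lay below those at 0 h, while those at 4 and 8 h overlapped them. Against 0 h the log2 fold change was -0.20 ± 0.07 after 2 h (adjusted p = 0.0495), 0.11 ± 0.07 after 4 h (adjusted p = 0.212), 0.04 ± 0.07 after 8 h (adjusted p = 0.6) and -0.52 ± 0.07 after 24 h (adjusted p = 9.6e-06). Without 24 h replicate 3 the last was -0.46 ± 0.06 (adjusted p = 1.11e-06).

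The dip of Ftl1 after 2 h was called lower in 3 alternatives, by DESeq2 (adjusted p = 0.00422), with only 0 and 2 h fitted (adjusted p = 7.18e-05) and without 24 h replicate 3 (adjusted p = 0.00692). The rise at 4 h against 2 h, 0.31 ± 0.07 (adjusted p = 0.0033), was not called when any of 7 single libraries was left out (2 h replicate 1 or 3, 4 h replicate 1 or 3, or any after 8 h; adjusted p 0.0119 to 0.0673). Between 8 and 24 h Fth1 fell by 0.67 ± 0.08 (adjusted p = 8.81e-06) and Ftl1 fell by 0.56 ± 0.07 (adjusted p = 1.54e-05) on the log2 scale, and without 24 h replicate 3 the steps were -0.57 ± 0.05 and -0.51 ± 0.06 (adjusted p = 2.63e-08 and 9.92e-07). The size depends on scaling. As a share of 0 h, Fth1 after 24 h was at 65.8% ± 8.44 in CPM, 79.5% ± 8.81 on library totals and 83.4% ± 4.27 in the authors' TPM, and Ftl1 at 69.7% ± 4.70, 84.4% ± 4.15 and 88.7% ± 1.26 (SD, n = 3 each). The Ftl1 value is uncertain, since Gm10252, annotated on the other strand over Ftl1, had 2816 to 4891 counts a library. Gm10252 averaged 111 ± 14.8 CPM after 24 h and 141 ± 13.0 CPM after 2 h, against 164 ± 2.01 CPM at 0 h (SD, n = 3 each), and its part in the Ftl1 values was not tested. Near-identical ferritin copies had few reads, at most 22 counts in a library for Ftl1-ps1, 16 for Ftl1-ps2, 5 for Fthl17a, 2 for Fth-ps2 and 1 for Fth-ps3.

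Slc40a1, the gene of the iron exporter ferroportin (chromosome 1, 45908068 to 45926523, minus strand), was not detectable as expressed at this depth. It had 2 counts in all, 1 in replicate 1 after 24 h and 1 in replicate 1 at 0 h, and 0 counts in the other 13 libraries. A count of 0 allows up to 3 counts, 0.111 to 0.116 CPM in these libraries, a limit that covers counting error only. No fold change is given.

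Of the iron regulatory proteins, Aco1 was lower from 4 h on. Aco1, encoding IRP1 (chromosome 4, 40143081 to 40198338, plus strand), stood at 66.5, 71.4 and 67.5 CPM at 0 h and at 66.7, 63.1 and 64.3 CPM after 2 h. It stood at 50.4, 47.8 and 43.9 CPM after 4 h, at 44.0, 37.6 and 39.3 CPM after 8 h, and at 36.6, 37.2 and 37.9 CPM after 24 h. All libraries from 4 h on lay below all at 0 and 2 h. The log2 fold change against 0 h was -0.08 ± 0.07 after 2 h (adjusted p = 0.459), -0.53 ± 0.07 after 4 h (adjusted p = 1.47e-05), -0.76 ± 0.07 after 8 h (adjusted p = 1.79e-07) and -0.88 ± 0.07 after 24 h (adjusted p = 2.61e-08), and -0.89 ± 0.07 after 24 h without replicate 3 (adjusted p = 4.65e-10). The 3 calls held in all 24 alternative fits. The step from 2 to 4 h was -0.45 ± 0.07 (adjusted p = 0.000172), the step from 4 to 8 h -0.23 ± 0.07 (adjusted p = 0.0285) and the step from 8 to 24 h -0.11 ± 0.07 (adjusted p = 0.199). With library totals the last of these was above 0 (0.05).

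Ireb2, encoding IRP2 (chromosome 9, 54863789 to 54912530, plus strand), had the smallest fold change of the called genes at 8 and 24 h. It stood at 122.7, 121.9 and 122.2 CPM at 0 h, at 129.5, 139 and 135 CPM after 2 h and at 120.3, 120.2 and 117 CPM after 4 h. It stood at 106, 102 and 105 CPM after 8 h and at 95.5, 93.4 and 112 CPM after 24 h, the highest of these in the library that stood apart. Against 0 h the log2 fold change was 0.14 ± 0.07 after 2 h (adjusted p = 0.152), -0.04 ± 0.07 after 4 h (adjusted p = 0.662), -0.23 ± 0.07 after 8 h (adjusted p = 0.00788) and -0.29 ± 0.07 after 24 h (adjusted p = 0.00123). Without 24 h replicate 3 the last was -0.37 ± 0.05 (adjusted p = 1.2e-06). All libraries after 2 h lay above those at 0 h, and all at 8 and 24 h lay below.

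The Ireb2 calls depended on the fit. At 24 h the call was lost with library totals (-0.01, adjusted p = 0.925), with upper-quartile factors (-0.15, adjusted p = 0.0572) and with only 0 and 24 h fitted (adjusted p = 0.0159). By the authors' TPM the 24 h level of Ireb2 was 105.3% ± 19.9 of that at 0 h, against 82.0% ± 8.27 in CPM (SD, n = 3 each). The 24 h libraries stood at 32.2, 31.3 and 43.4 TPM, against 34.5, 33.2 and 33.7 TPM at 0 h. The highest was the library that stood apart, and the others lay below every 0 h library. At 8 h the call was lost in 9 of 24 alternative fits, with adjusted p up to 0.383. At 2 h it was called higher with only 0 and 2 h fitted (adjusted p = 0.00347).

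Hmox1 was the one gene of the 8 called higher against 0 h at any time. This inducible haem oxygenase (chromosome 8, 75093621 to 75100589, plus strand) was expressed at a low level, 5.54, 5.45 and 5.03 CPM at 0 h and 5.68, 7.53 and 6.26 CPM after 2 h. It stood at 6.76, 5.58 and 7.64 CPM after 4 h, at 10.4, 8.29 and 9.44 CPM after 8 h, and at 15.13, 14.26 and 15.03 CPM after 24 h. In CPM every library with doxycycline lay above every 0 h library, the lowest by 5.58 against 5.54 CPM, and those after 24 h lay above all others. In the authors' TPM, replicate 2 after 4 h (8.23) lay below replicate 1 at 0 h (8.44). The log2 fold change against 0 h was 0.28 ± 0.14 after 2 h (adjusted p = 0.155), 0.32 ± 0.14 after 4 h (adjusted p = 0.0615), 0.81 ± 0.13 after 8 h (adjusted p = 6.72e-05) and 1.47 ± 0.13 after 24 h (adjusted p = 6.23e-08). Without 24 h replicate 3 the last was 1.46 ± 0.13 (adjusted p = 1.94e-09), and both calls held in all 24 alternative fits. These values rest on 1322 counts in the 3 libraries after 24 h, against 406 at 0 h.

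Hmox1 is strongly expressed in macrophages that recycle red cells, so their markers are given beside it. The summed level of the 10 macrophage markers was 5.91 to 10.1 CPM after 24 h, and 7.88 to 10.1 CPM at 0 h, and their part in the Hmox1 values was not tested. Hmox1 was 2.77-fold higher after 24 h than at 0 h. The step from 8 to 24 h was 0.66 ± 0.12 (adjusted p = 0.000432), or 0.65 ± 0.12 without 24 h replicate 3 (adjusted p = 0.000159). The step from 4 to 8 h, 0.49 ± 0.13 (adjusted p = 0.0119), was called higher in 6 of 24 alternative fits.

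**Figure D3:**
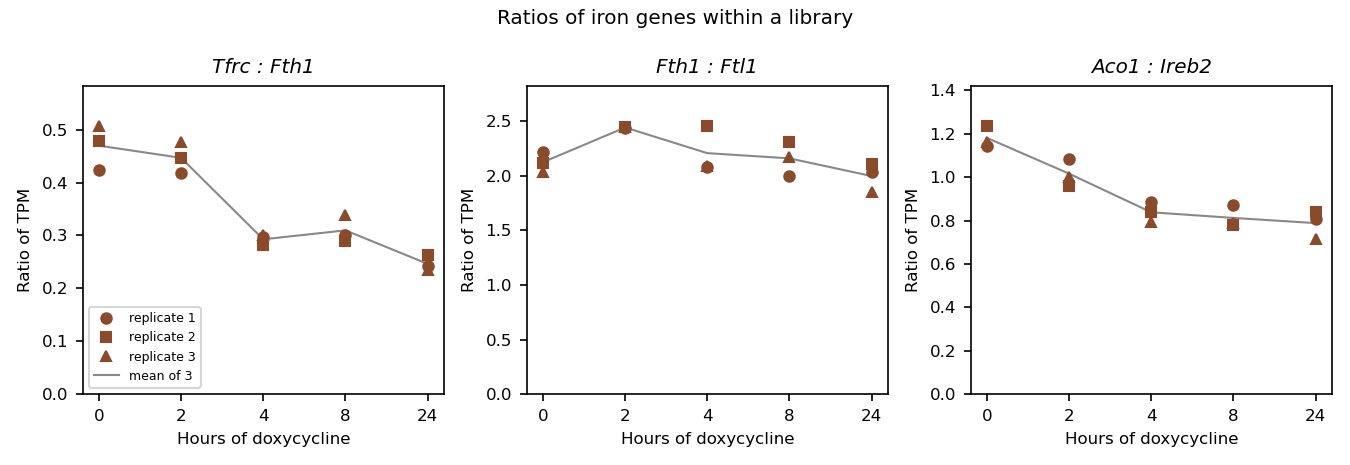
Ratio of the authors' TPM of 2 iron genes within a library (y axes, from 0) against hours of doxycycline (x axis, evenly spaced), with a symbol for each replicate and a line through the means. The ratio of Tfrc to Fth1 was 0.234 to 0.263 after 24 h and 0.424 to 0.507 at 0 h, that of Aco1 to Ireb2 was 0.715 to 0.840 and 1.14 to 1.24, and that of Fth1 to Ftl1 had its highest mean after 2 h, with 1 library after 4 h above those after 2 h.

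Levels of different genes can be compared per length, in TPM. At 0 h the order was Fth1 at 1317 ± 59.5 TPM, then Ftl1 at 619.7 ± 11.2 and Tfrc at 617 ± 30.6, whose libraries overlapped. Far below them lay Aco1 at 39.9 ± 0.97, Ireb2 at 33.8 ± 0.66, Slc11a2 at 22.7 ± 0.54 and Hmox1 at 8.00 ± 0.47 TPM, none of which overlapped its neighbours (SD, n = 3 each). Messages for ferritin and transferrin receptor thus stood highest, and ferroportin message was near 0. At 24 h Fth1 was at 1098 ± 56.3 and Ftl1 at 549.9 ± 7.84 TPM, Tfrc was below both at 271 ± 29.6, and Ireb2 (35.6 ± 6.73), Hmox1 (28.4 ± 2.91), Aco1 (27.8 ± 2.80) and Slc11a2 (27.2 ± 4.48) each overlapped its neighbour in that order (SD, n = 3 each). The Tfrc and Ftl1 levels, which overlapped at 0 h, were thus apart after 24 h, and those of Aco1 and Hmox1, apart at 0 h, overlapped.

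A ratio of 2 genes within a library does not depend on how libraries are scaled. Tfrc to Fth1, uptake receptor against storage chain, was 0.424, 0.478 and 0.507 at 0 h and 0.418, 0.446 and 0.476 after 2 h. It was 0.297, 0.282 and 0.300 after 4 h, 0.302, 0.289 and 0.338 after 8 h, and 0.242, 0.263 and 0.234 after 24 h. Every library from 4 h on lay below all at 0 and 2 h, and 24 h lay below the rest. The ratios were chosen after the values of the genes were seen and are given as a description, with no test. Aco1 to Ireb2 was 0.715 to 0.840 after 24 h, 0.778 to 0.872 after 8 h, 0.791 to 0.884 after 4 h and 0.959 to 1.09 after 2 h, against 1.14 to 1.24 at 0 h. The shift towards Ireb2 was thus already outside the 0 h range after 2 h, when neither gene was called. Fth1 to Ftl1 was 1.85 to 2.11 after 24 h and 2.44 to 2.45 after 2 h, against 2.04 to 2.22 at 0 h, with the overlap of Ftl1 and Gm10252 as given above.

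**Figure D4:**
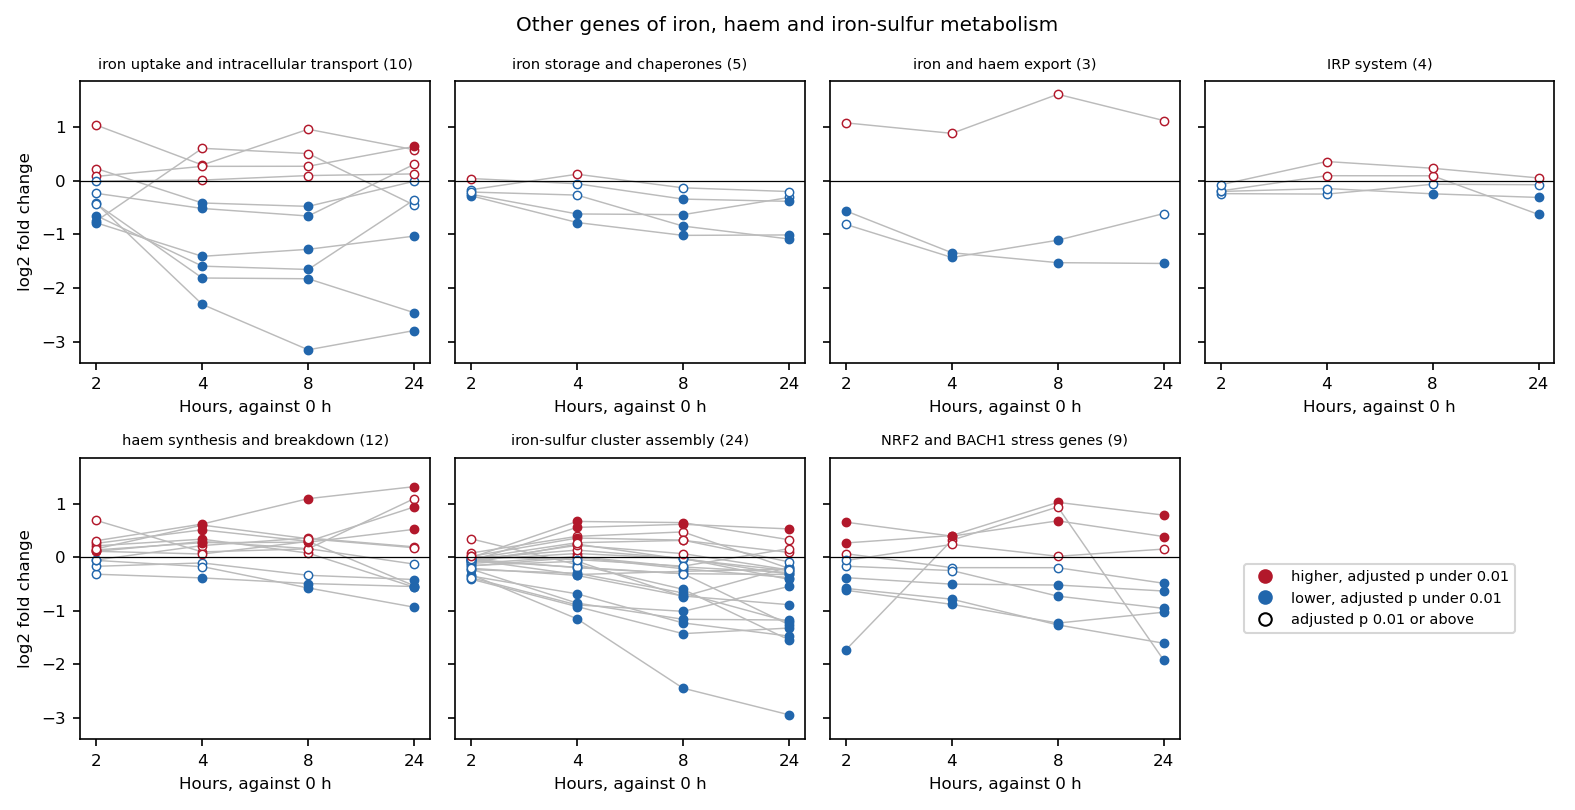
Log2 fold change (y axis) against 0 h at 2, 4, 8 and 24 h (x axis, evenly spaced) of the other tested genes of 7 lists, 1 line per gene, with the number of genes in brackets. Filled points passed an adjusted p under 0.01, red higher and blue lower. In the uptake list 6 of 10 genes were lower and 0 higher after 4 h and after 8 h, and in the iron-sulfur list Hspa9 reached -2.94 after 24 h.

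Around Tfrc and Slc11a2, other genes of iron uptake and intracellular transport were lower at 4 and 8 h. Of 10 tested beside them, 2, 6, 6 and 3 were lower at 2, 4, 8 and 24 h, beside 8.59%, 19.9%, 25.1% and 28.1% of all genes, and 1 was higher, after 24 h, beside 30.7%. Their median log2 fold change was -0.33, -0.47, -0.57 and -0.18, where that of all genes was 0.01, 0.08, 0.09 and 0.07. Steap3, the reductase that converts ferric to ferrous iron in endosomes, averaged 1.94 ± 0.42 CPM after 4 h, 1.07 ± 0.45 after 8 h and 1.38 ± 0.45 after 24 h, against 9.59 ± 0.42 at 0 h (SD, n = 3 each), with a log2 fold change of -3.15 ± 0.24 after 8 h (adjusted p = 1.82e-08). Slc39a14, which encodes ZIP14, a transporter of iron not bound to transferrin, was lower at all 4 times, with log2 fold changes of -0.79 ± 0.10 after 2 h and -1.41 ± 0.10 after 4 h (adjusted p = 2.41e-05 and 1.05e-08). Slc25a37, the mitochondrial iron importer mitoferrin, was lower, with log2 fold changes of -1.59 ± 0.17 after 4 h and -1.66 ± 0.17 after 8 h (adjusted p = 1.47e-06 and 5.78e-07) but was -0.36 ± 0.17 after 24 h (adjusted p = 0.0664). Its 24 h libraries stood at 66.7, 62.9 and 115.9 CPM, the highest in the library that stood apart, and without that library it was called lower after 24 h (-0.69 ± 0.07, adjusted p = 3.26e-08). Its call after 2 h (-0.65 ± 0.17, adjusted p = 0.00906) was lost in 15 of 24 alternative fits. Slc46a1, a folate and haem carrier, was lower, with a log2 fold change of -2.46 ± 0.30 after 24 h (adjusted p = 2.21e-06) at under 2 CPM. Mcoln1, the late endosomal channel that releases iron and calcium, was higher after 24 h by 0.64 ± 0.17 (adjusted p = 0.00402), and by 0.33 ± 0.10 without 24 h replicate 3 (adjusted p = 0.00776). With all libraries at 24 h kept, the call was lost without any single 0 h library and with only 0 and 24 h fitted (adjusted p up to 0.0422).

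Beside the ferritin genes, genes that deliver iron to ferritin or release it were called lower, Pcbp1 from 2 h on and others later. Of 5 tested, 1, 2, 4 and 3 were lower at 2, 4, 8 and 24 h, beside 8.59%, 19.9%, 25.1% and 28.1% of all genes. At each of these times 0 were higher by edgeR, 0 by DESeq2 and 0 at an unadjusted p under 0.05. Pcbp1, a cytosolic iron chaperone for ferritin, was lower, with log2 fold changes of -0.78 ± 0.07 after 4 h and -1.02 ± 0.07 after 8 h (adjusted p = 1.93e-07 and 5.17e-09). Ncoa4, the receptor that takes ferritin to lysosomes, was lower, with log2 fold changes of -0.62 ± 0.10 after 4 h and -0.63 ± 0.10 after 8 h (adjusted p = 9.23e-05 and 4.98e-05). Pcbp2, a related chaperone, was lower after 8 h (-0.34 ± 0.06), as was Glrx3, a cytosolic glutaredoxin that carries iron-sulfur clusters (-0.85 ± 0.13; adjusted p = 9.8e-05 and 3.5e-05). With library totals Pcbp2 was not called after 24 h (adjusted p = 0.127, against 2.43e-05), and the call of Pcbp1 after 2 h (adjusted p = 0.00723) was lost in 13 of 24 alternative fits. Ncoa4 was not called after 24 h (-0.31 ± 0.10, adjusted p = 0.0105) but was without 24 h replicate 3 (-0.41 ± 0.09, adjusted p = 0.000226).

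On the export side, Flvcr1, described as a haem exporter and as a choline carrier, was lower at every time. It averaged 52.1 ± 2.54 CPM after 2 h, 30.3 ± 0.79 after 4 h, 26.7 ± 1.32 after 8 h and 26.4 ± 1.18 after 24 h, against 77.0 ± 2.12 at 0 h (SD, n = 3 each). The log2 fold change was -0.56 ± 0.06 after 2 h and -1.54 ± 0.07 after 24 h (adjusted p = 1.12e-05 and 1.16e-11). Cp, ceruloplasmin, which oxidises exported iron, was called lower at 4 and 8 h from levels under 2 CPM, and those calls were lost in 4 and 8 of 24 alternative fits. Abcg2 was tested and not called, and Heph, Hamp and Flvcr2 were too low to test.

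In the system that controls IRP2, the ubiquitin ligase of Fbxl5, Skp1a, Cul1 and Rbx1, 0 of the 4 genes were called at 2 and after 4 h. Of all genes, 6.6% were called higher and 8.59% lower at 2 h, and 18.1% and 19.9% at 4 h. At 8 and 24 h 0 of the 4 were higher, beside 25.3% and 30.7% of all genes, and 1 and 2 were lower, beside 25.1% and 28.1%. At an unadjusted p under 0.05, 0 were higher and 2 lower after 2 h, and 1 was higher and 2 lower after 4 h, where DESeq2 called 1 after 2 h and 0 after 4 h. Fbxl5, which senses iron and marks IRP2 for destruction, had log2 fold changes of -0.24 ± 0.11 after 2 h and -0.08 ± 0.11 after 24 h (adjusted p = 0.132 and 0.552), the last of them 0.04 ± 0.09 without 24 h replicate 3 (adjusted p = 0.684). Rbx1, the ring subunit, was at 0.05 after 24 h (adjusted p = 0.754) and was called higher without that library (0.25 ± 0.07, adjusted p = 0.00224). Cul1 was lower after 8 h (-0.25 ± 0.07) and, with Skp1a (-0.63 ± 0.14), after 24 h (-0.31 ± 0.07; adjusted p = 0.00471, 0.000904 and 0.000622), and all 3 calls were lost with library totals (adjusted p up to 0.594). Epas1, whose mRNA also has an iron responsive element, was called higher after 8 h at 0.39 CPM, a call lost in 10 of 24 alternative fits.

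Haem genes were called in both directions. Of 12 tested beside Hmox1, 0, 5, 3 and 3 were higher at 2, 4, 8 and 24 h, beside 6.6%, 18.1%, 25.3% and 30.7% of all genes, and 0, 1, 2 and 5 were lower, beside 8.59%, 19.9%, 25.1% and 28.1%. With 24 h replicate 3 left out, 6 were higher at 8 h and 5 at 24 h. Over the 24 alternative fits, 1 to 6 were higher at 4 h, 1 to 6 at 8 h and 3 to 6 at 24 h. In those fits 0 to 2, 2 to 3 and 3 to 5 were lower. At 2 h, where none was called, 3 were higher and 1 was lower at an unadjusted p under 0.05, DESeq2 called 0 higher and 1 lower, and other fits called up to 4 higher and 1 lower. Blvrb, which reduces biliverdin downstream of haem oxygenase, was higher by 1.09 ± 0.14 after 8 h and 1.31 ± 0.14 after 24 h (adjusted p = 6.82e-06 and 6.1e-07), reaching 33.1 ± 7.05 CPM after 24 h, against 13.3 ± 0.74 at 0 h (SD, n = 3 each). Hmox2, the constitutive haem oxygenase, was higher by 0.28 ± 0.08 after 8 h (adjusted p = 0.00452), a call lost in 12 of 24 alternative fits, and by 0.52 ± 0.08 after 24 h (adjusted p = 1.61e-05). Blvra, the other biliverdin reductase, was at 0.18 ± 0.14 after 24 h (adjusted p = 0.282), and without 24 h replicate 3 it was called higher (0.37 ± 0.08, adjusted p = 0.000419). Fech, which inserts iron into haem, was higher by 0.51 ± 0.07 after 4 h (adjusted p = 3.58e-05) and then lower, at -0.53 ± 0.08, after 24 h (adjusted p = 1.29e-05). Alas1, the first enzyme of haem synthesis, stood at a log2 fold change of -0.56 ± 0.08 and Cpox, a later one, at -0.93 ± 0.07 after 24 h, while Ppox, the enzyme next to last, was higher at 0.94 ± 0.11 (adjusted p = 1.73e-05, 1.37e-08 and 1.4e-06).

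Genes of iron-sulfur cluster assembly, a main use of mitochondrial iron, were mostly lower where called. Of 24 tested, 0, 3, 3 and 1 were higher at 2, 4, 8 and 24 h, beside 6.6%, 18.1%, 25.3% and 30.7% of all genes, and 4, 8, 10 and 13 were lower, beside 8.59%, 19.9%, 25.1% and 28.1%. Their medians were -0.07, -0.06, -0.24 and -0.32, and without 24 h replicate 3, 5 were higher at 8 h and 2 at 24 h. At 2 h, 1 was higher at an unadjusted p under 0.05 and DESeq2 called 0 higher. Hspa9, the mitochondrial HSP70 that takes part in cluster transfer and protein import, averaged 525 ± 12.3 CPM after 2 h, 297 ± 15.2 after 4 h, 121 ± 7.03 after 8 h and 85.8 ± 2.67 after 24 h, against 658 ± 2.04 at 0 h (SD, n = 3 each). Glrx5, a mitochondrial glutaredoxin, and Nubp2, a cytosolic scaffold protein, were lower after 24 h, at -1.47 ± 0.09 and -1.32 ± 0.09 (adjusted p = 1.26e-09 and 2.37e-09). Iba57, a late-acting factor, was at -1.54 ± 0.12 after 24 h, and Lyrm4, the partner of the desulfurase Nfs1, at -1.16 ± 0.12 after 8 h (adjusted p = 2.25e-08 and 3.82e-07). At 2 h the calls of Glrx5 and Nfs1 were lost in 16 and 17 of 24 alternative fits.

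Hmox1, Fth1 and Ftl1 are also targets of NRF2, a stress factor, and of BACH1, a haem-sensing repressor. Of 9 other tested genes of that list, 2 were higher at each of 2, 4, 8 and 24 h, beside 6.6%, 18.1%, 25.3% and 30.7% of all genes, and 4, 3, 4 and 6 were lower, beside 8.59%, 19.9%, 25.1% and 28.1%. Leaving out 24 h replicate 3 gave 5 lower at 4 h. The target Hmox1 was higher after 24 h, while the targets Txnrd1 (-1.60 ± 0.06), Gclc (-1.03 ± 0.06), Gclm (-0.95 ± 0.08) and Nqo1 (-1.92 ± 0.38) were lower (adjusted p = 2.65e-12, 3.69e-10, 7.38e-08 and 0.000321), Nqo1 at under 2 CPM. Slc7a11, the cystine importer, was like Hmox1 higher after 24 h, by 0.38 ± 0.07 (adjusted p = 0.00014). It was higher at all 4 times, by 0.65 ± 0.07 after 2 h (adjusted p = 6.33e-06). Bach1 mRNA was higher by 1.02 ± 0.05 after 8 h (adjusted p = 2.13e-10) and Keap1, which targets NRF2 for destruction, was lower, with a log2 fold change of -0.50 ± 0.08 after 4 h (adjusted p = 6.39e-05). Nfe2l2, which encodes NRF2, was not called after 4 h (-0.20 ± 0.08, adjusted p = 0.0409). It was lower after 24 h (-0.49 ± 0.08, adjusted p = 3.25e-05). The targets named here thus did not share 1 direction after 24 h.

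Finally, the genes closest in course to each iron gene were sought among 8749 other protein-coding genes of at least 10 CPM at their highest time. Likeness was the root mean square difference of the log2 fold changes at 2, 4, 8 and 24 h, all against the same 0 h libraries. Nearest to Tfrc were Hnrnpa1 (0.109) and Eif4b (0.119), and to Slc11a2 Ablim1 (0.0463), Cars2 (0.0537) and Psd4 (0.0716). Fth1 was nearest to Akr1a1 (0.0302), Sod1 (0.0329) and Aplp2 (0.0340), and Ftl1 to Mycbp (0.0504), Drap1 (0.0532) and Snapc5 (0.0560). Ireb2 was nearest to Zbtb8os, Nfatc3 and Bricd5 (0.0321 to 0.0389), Aco1 to Prpsap1, Rnf216 and Smg9 (0.0378 to 0.0486), and Hmox1 to Ppp6r2, Natd1 and Atxn1 (0.0575 to 0.0730). The nearest gene to Tfrc differed by 0.109 on the log2 scale, while every other tested iron gene had its nearest within 0.06. The measure was not scaled to the size of the fold changes, and that of Tfrc after 24 h was the largest.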

How the data were processed

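The members and lists were chosen with earlier results of these data known. The authors deposited 1 table per library, with whole counts per gene and length-scaled values made from them. The authors' counts and TPM were used here. Tools in the submitters' processing notes were featureCounts, STAR 2.5.4b and cutadapt 1.16, with build mm10. No source used here gives the strand setting, the handling of reads with several positions or the annotation release. Symbols and positions came from GENCODE M21 (GRCm38), to which 53274 gene IDs matched without their version. Promoter windows came from RefSeq.

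Total counts ran from 25852711 to 27102318 (median 26672358), and counting error sets the precision of low genes only. Genes passing edgeR's filterByExpr (14485) were fitted with edgeR 4.0.16 (R 4.3.3), with trimmed mean of M values (TMM) factors, 1 mean per time, no block and a quasi-likelihood test. Fold changes with an adjusted p under 0.01 were called, and 95% intervals are 1.96 SE wide on each side. CPM used TMM-scaled totals. Alternatives were 24 other fits (among them DESeq2 1.42.0 and 15 with a library left out) and a threshold of 0.05.

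Genes named are the 8 members, the transgene, up to 4 called genes of largest change per list and time (all where 5 or fewer were called), and the 3 genes nearest in course to each member. Some genes were named outside this rule after their values were seen. They are Abcg2, Fbxl5, Rbx1, Nfe2l2, Heph, Hamp and Flvcr2, and Fech, Hmox2, Blvra, Ncoa4, Slc25a37 and Slc7a11 at 24 h. The overlapping genes and copies were also named that way. Fam96a and Fam96b were read as Ciao2a and Ciao2b. A few genes that the rule or the lists would name are not reported here.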

Additional observations from a re-analysis of the deposited data

How the results depend on the processing

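The calls of Tfrc at 4, 8 and 24 h, of Slc11a2 at 2 and 4 h, of Aco1 and Hmox1 at 8 and 24 h, of Aco1 at 4 h and of both ferritin genes at 24 h against 0 h held in all 24 alternative fits. Replicate numbers did not clearly pair the libraries (correlation of same-numbered deviations -0.31 to 0.21, over 0.1 in 3 of 30 pairs). The larger negative correlations all involved a 24 h library, and the check cannot settle whether libraries were paired. With the replicate block, the number of members called was 1, 3, 4 and 6 at 2, 4, 8 and 24 h against 0 h, and the Ireb2 call at 8 h was lost (adjusted p = 0.0123).

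The number of members called at 2 h against 0 h (main value 1) was 2 with DESeq2, 3 with only the 2 times fitted and 2 at an adjusted p under 0.05. At 8 h against 0 h (main value 5) upper-quartile factors gave 3, as did library totals (3). At 8 h against 4 h (main value 0) it was 1 with upper-quartile factors, 1 with library totals, 1 with at least 10 counts in every library, 2 with DESeq2 and 2 at an adjusted p under 0.05. Leaving out 1 library in turn gave 1 to 2 at 2 h, 3 to 5 at 8 h, 1 to 5 at 4 h against 2 h (main value 3) and 0 to 3 at 8 h against 4 h. The number of all genes called higher and lower without 24 h replicate 3 was 1744 and 2167 at 2 h against 0 h (956 and 1244 with it), 2414 and 2907 at 4 h against 2 h (1118 and 1882), and 1696 and 2128 at 8 h against 4 h (830 and 1010). Over all alternatives, 603 to 2432 genes were called higher and 774 to 2794 lower at 2 h against 0 h, and 782 to 4636 higher and 1151 to 3413 lower at 24 h against 8 h. Scaling moved the split of calls. The share of called genes that were higher at 2, 4, 8 and 24 h against 0 h was 43.5%, 47.7%, 50.2% and 52.2%. With library totals it was 54.8% after 2 h, 69.0% after 24 h, 61.0% for 8 h against 4 h and 74.4% for 24 h against 8 h (45.1% and 54.6% otherwise). With upper-quartile factors it was 59.7% after 4 h, 63.5% after 8 h, 50.6% for 4 h against 2 h and 59.7% for 8 h against 4 h (37.3% and 45.1% otherwise).

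None of the log2 fold changes that changed sign had been called. With library totals these were Tfrc at 8 h against 4 h (0.049), Slc11a2 at 24 h (0.18), Fth1 at 2 h (0.044), Ireb2 at 4 h (0.0085) and at 24 h against 8 h (0.11), and Aco1 at 24 h against 8 h (0.054). With upper-quartile factors they were Tfrc at 8 h against 4 h (0.046), Slc11a2 at 24 h (0.0445) and at 4 h against 2 h (0.047), Fth1 at 2 h (0.035) and Ireb2 at 4 h (0.063). With at least 10 counts in every library they were Tfrc at 8 h against 4 h (0.014), Fth1 at 2 h (0.0075) and Hmox1 at 4 h against 2 h (-0.00098). Without a filter Fth1 at 2 h was 0.0034, and with only the times compared it was 0.0058 and Tfrc at 8 h against 4 h 0.0036. Leaving out 1 library in turn gave -0.076 to 0.019 for Tfrc at 8 h against 4 h, -0.031 to 0.030 for Fth1 at 2 h, -0.00044 to 0.087 for Fth1 at 8 h, -0.041 to 0.055 for Ftl1 at 8 h and -0.12 to 0.16 for Hmox1 at 4 h against 2 h. By the authors' TPM Ireb2 at 24 h was at 105.3% of 0 h, above 100% only through the library that stood apart. The cause was not tested. Of the alternative values of the 7 members' fold changes, 1136 kept direction and side of the threshold, 29 lost and 21 gained the call, and 39 changed sign.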
